A study of Arabidopsis thaliana with 36 samples.

Results

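The transcriptome of Arabidopsis thaliana Col (Columbia) seedlings with 25 mM sucrose was set against that of Col seedlings with no sugar, both at 24 h. The groups were chosen by sample title: 3 libraries titled Suc_25mM and 3 titled Suc_0mM, 6 of the 36 libraries of the series. For the 3 Suc_25mM libraries the treatment label reads 2DG_1mM, and for 3 further Col libraries titled 2DG_1mM it reads Suc_25mM, so title and treatment label name these groups the other way round. The titles, which are also the column names of the count table, are followed throughout. All groups were wild type with no transgene. Seedlings were grown at 22 °C with 16 h of light on agar holding 25 mM sucrose and moved at 6 days to liquid medium for 1 day. Per the labels' protocols that medium held no sucrose for the experiment with 2-deoxy-d-glucose (2DG), an analogue of glucose. How and when the Suc_25mM group received its sucrose is not stated, and every group had been raised on sucrose. The series holds other libraries treated with the bacterial peptide flg22, which are not used here. One library of each group carries each of the numbers 1 to 3, and the series' design names 3 independent trials, each giving 1 library of a condition.

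Sucrose is the main sugar that plants move between organs. It is cleaved by invertases, which give glucose and fructose, or by sucrose synthases, which give UDP-glucose and fructose, and hexoses are taken up by proton symporters of the STP family and phosphorylated by hexokinases. When carbon runs short, the kinase SnRK1 switches on genes that recover carbon from amino acids, cell walls and starch, and sugar supply turns these off. Sugar is also known to lower the transcripts of photosynthesis genes and to raise those of nitrate assimilation and starch synthesis.

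Libraries were 3′ digital gene expression libraries, in which reads come from transcript ends and are counted per gene. Total counts were 10741518, 10265331 and 8054500 in the sucrose libraries and 12199243, 11580721 and 12881741 in the no-sugar libraries. Levels below are CPM, counts per 1000000 of the scaled library total, in the order of libraries 1, 2 and 3. Rises and falls are given as log2 values of sucrose over no sugar ± standard error from edgeR, with n = 3 libraries per group. A gene is said to rise or fall only where its edgeR adjusted p, corrected over all 19727 genes tested, is below 0.05. As bulk seedlings were used, fewer cells of a type and less RNA per cell cannot be told apart. The seedlings' tissues were represented: 22 root markers summed to 641, 1097 and 886 CPM with sucrose and 557, 943 and 1112 CPM with no sugar, and 0 of them passed in edgeR or in DESeq2 or had an unadjusted p below 0.05. The 14 guard cell markers summed to 177, 226 and 215 CPM with sucrose and 255, 299 and 305 CPM with no sugar, 1 rising (the kinase OST1) and 1 falling. The rise was lost with the library number as a term in the fit, called the replicate block below (edgeR adjusted p = 0.058) and on leaving out any 1 library but sucrose library 1 (0.061 to 0.16), and with the block 2 fell. Heat shock genes, which also respond to handling, differed widely within each group: the 14 tested summed to 7517, 2148 and 7148 CPM with sucrose and to 4947, 219.8 and 2255 CPM with no sugar, library 2 being lowest in both. Their part in the results below was not tested.

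Between sucrose and no sugar, 2463 genes differed, 12.5% of those tested: 1264 rose (6.41%) and 1199 fell (6.08%). Of these, 410 rose and 295 fell by more than 2 log2 units, and the median log2 change of all genes was 0.039. In 20.2% of all genes the 3 sucrose libraries lay above the 3 no-sugar libraries, and in 16.9% below them. These shares of all genes are the background for every count of list members below. The number of differing genes was 1277 without sucrose library 1 and 1507 without sucrose library 3. The 15 largest rises among named genes with a mean log2 CPM of at least 3 were led by GPT2 (AT1G61800), the plastid glucose-6-phosphate importer. They also included 4 genes of enzymes that attach sugars or glutathione to small molecules, GSTU24 (5.07 ± 0.35), GSTU25 (4.49 ± 0.69), UGT74E2 (4.58 ± 0.34) and UGT73B4 (3.53 ± 0.32), and 2 genes of the U1 spliceosomal RNA, U1.10 (4.82 ± 0.58) and U1.8 (3.71 ± 0.68). GSTU24 and GSTU25 are closely related, U1 genes are near-identical copies, and the counting could split reads between them. CORI3 (AT4G23600), a cystine lyase gene induced by the toxin coronatine, had 56.1, 60.1 and 55.5 CPM with sucrose and 1.16, 0.176 and 3.28 CPM with no sugar. All 3 sucrose libraries were close together, and it rose by 5.20 ± 0.64.

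**Figure D1:**
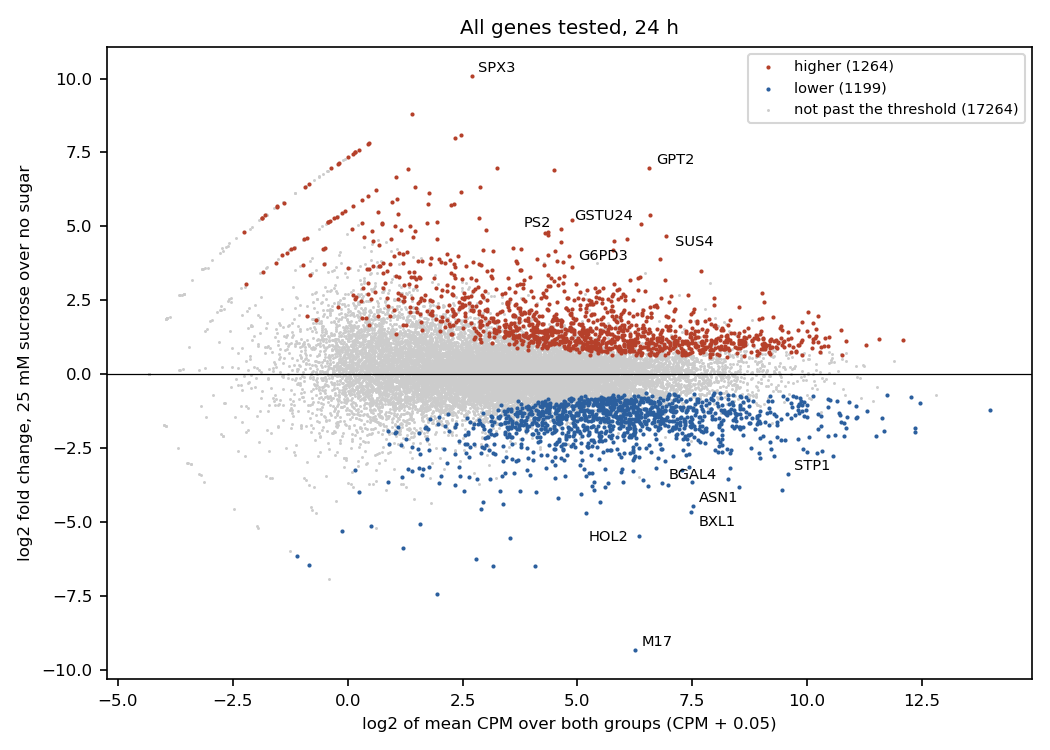
Log2 fold change of sucrose over no sugar (y) against the log2 mean CPM of both groups (x) for the 19727 genes tested. Red points are the 1264 genes that rose and blue points the 1199 that fell. The fitted folds of genes with no count in a group, such as SPX3 at the top, are not bounds on the fold.

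M17 (AT2G41260), a late embryogenesis abundant protein gene, stood furthest down. It had 0.257, 0.19 and 0.226 CPM with sucrose and 138, 186 and 134 CPM with no sugar, a change of -9.33 ± 0.36 (edgeR adjusted p = 3.1e-07). HOL2 (AT2G43920), which encodes a relative of a methyltransferase acting on thiocyanate and halides, had 1.8, 4.36 and 4.52 CPM with sucrose and 119, 136 and 219 CPM with no sugar. In both genes every sucrose library lay far below every no-sugar library. PISTILLATA (PI), a floral homeotic MADS-box gene, fell by 4.70 ± 0.54, THA1, which encodes a threonine aldolase, fell by 3.91 ± 0.52, and SNG1, whose enzyme makes sinapoylmalate, fell by 3.64 ± 0.38.

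Genes that mark sugar starvation were lower with sucrose. Of the 37 members of the starvation and low-energy list tested, 27 fell (6.08% of all genes fell), 1 rose (6.41% of all genes rose) and 9 did not pass. The median log2 change was -1.80 against 0.039 for all genes, and 27 had all 3 sucrose libraries below all 3 no-sugar libraries (16.9% of all genes). ASN1 (AT3G47340), the dark-inducible asparagine synthetase, had 17, 18 and 13 CPM with sucrose and 379, 419 and 254 CPM with no sugar. Its groups were far apart, and it fell by 4.45 ± 0.33 (edgeR adjusted p = 4.7e-05). BXL1 (AT5G49360), which encodes a cell wall xylosidase and arabinosidase, had 8.66, 17.9 and 14.2 CPM with sucrose and 131, 522 and 367 CPM with no sugar, a change of -4.64 ± 0.51. No-sugar library 1 was the lowest of its group for BXL1, and still above all sucrose libraries. BGAL4 (AT5G56870), a beta-galactosidase gene, had 16.8, 16.1 and 17 CPM with sucrose and 156, 248 and 238 CPM with no sugar. The sucrose libraries were almost level for BGAL4, which fell by 3.68 ± 0.25.

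The dark-inducible genes did not all move one way. DIN1 (AT4G35770, also SEN1), a senescence-associated gene, had 88.1, 144 and 143 CPM with sucrose and 906, 928 and 829 CPM with no sugar and fell by 2.83 ± 0.28. DIN9, a phosphomannose isomerase gene, was rare, with 0.772, 0.19 and 0.564 CPM with sucrose and 4.58, 3.6 and 8.42 CPM with no sugar, and fell by 3.40 ± 0.53. DIN11 (AT3G49620), an oxygenase gene named for darkness induction, was the member that rose, with 112, 24.8 and 63.3 CPM with sucrose and 20, 5.62 and 10.3 CPM with no sugar. It changed by 2.48 ± 0.54 (edgeR adjusted p = 0.011, and 0.053 without sucrose library 1). Among regulators, the transcription factor gene bZIP1, a mediator of low-energy signalling, fell by 3.20 ± 0.44 and the related bZIP63 fell by 2.57 ± 0.60 (edgeR adjusted p = 0.016, and 0.076 without sucrose library 1). The scaffold protein gene BT1 fell by 2.84 ± 0.52, and BT2 fell by 2.89 ± 0.51. The partner bZIP53 had 104, 92.3 and 88.7 CPM with sucrose and 102, 109.9 and 96.7 CPM with no sugar, and its groups overlapped. GDH1 and GDH2, subunits of glutamate dehydrogenase, differed by 0.02 ± 0.26 and 0.18 ± 0.20 (edgeR adjusted p = 0.98 and 0.66) and are not called.

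**Figure D2:**
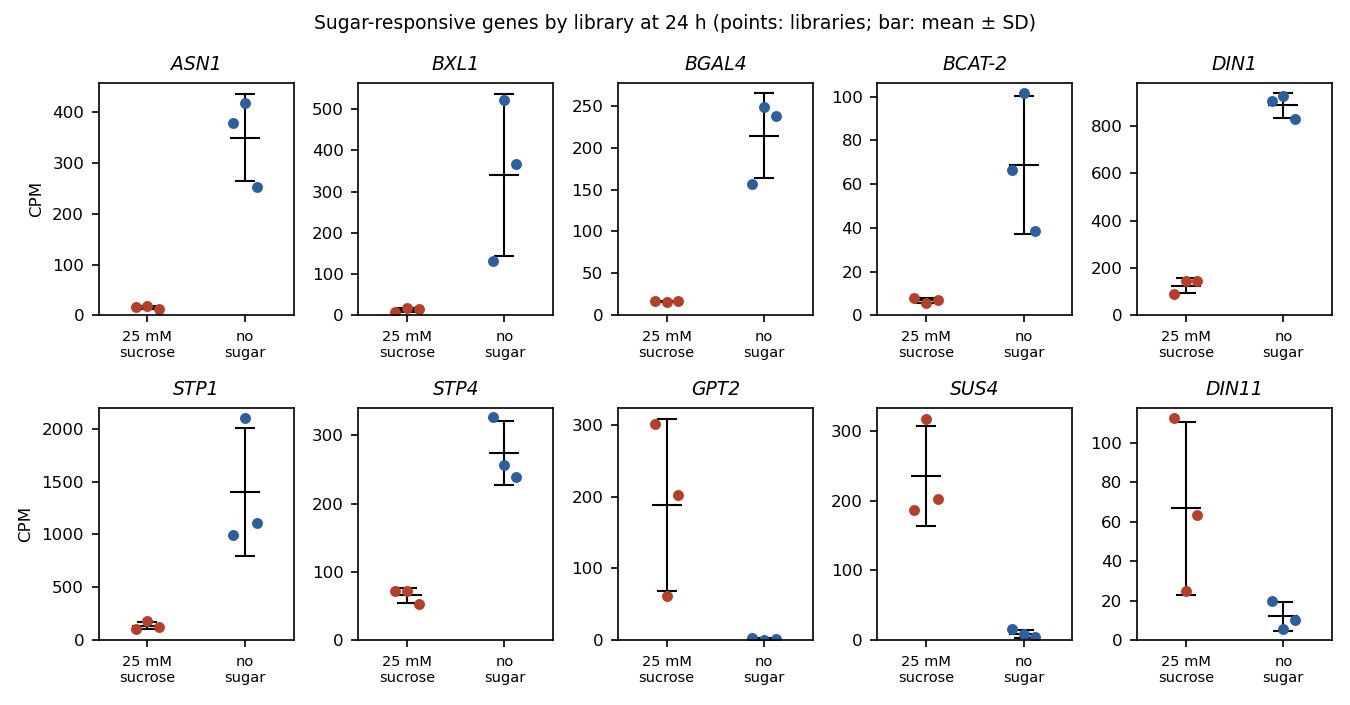
CPM (y) of 10 sugar-responsive genes in the 25 mM sucrose libraries (red) and the no-sugar libraries (blue), each point 1 library, with mean and SD. ASN1, BXL1, BGAL4, BCAT-2, DIN1, STP1 and STP4 lie lower with sucrose in every library, and GPT2, SUS4 and DIN11 higher in every library.

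Upstream sequences of starvation genes that fell are shown because these genes moved together. Windows of 250 bases before the annotated gene start in RefSeq TAIR10.1 were searched on both strands for 4 motifs: the I-box GATAAG, the G-box CACGTG, the bZIP-related ACTCAT and the phosphate-response motif P1BS, GNATATNC. The I-box stood in 37% of the 27 starvation genes that fell (10 genes), in 20.9% of all genes that fell, in 9.42% of those that rose and in 12.5% of all 19624 tested genes with a window. For the same 27 genes the shares were 3.7% for the G-box against 7.29% of all genes, 7.41% for ACTCAT against 11.8%, and 25.9% for P1BS against 5.57%. The I-box was picked for display after these shares were seen, and a match is a description of the letters and not a site. The windows of 3 starvation genes follow, read 5′ to 3′ on the strand of the gene, with I-box matches on either strand in capitals (a match on the other strand reads CTTATC):
DIN9 (chr1:25041583-25041832, plus strand): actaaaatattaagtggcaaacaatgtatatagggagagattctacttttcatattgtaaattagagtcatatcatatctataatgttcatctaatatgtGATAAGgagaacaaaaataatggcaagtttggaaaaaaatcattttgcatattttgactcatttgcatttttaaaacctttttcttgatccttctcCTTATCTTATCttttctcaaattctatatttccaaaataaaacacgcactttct
BT1 (chr5:25335571-25335820, minus strand): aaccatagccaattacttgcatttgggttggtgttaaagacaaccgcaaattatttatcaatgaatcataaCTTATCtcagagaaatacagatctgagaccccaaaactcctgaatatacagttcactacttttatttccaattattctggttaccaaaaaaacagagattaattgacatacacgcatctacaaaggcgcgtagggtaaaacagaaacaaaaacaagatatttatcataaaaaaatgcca
TPS8 (chr1:26474834-26475083, minus strand): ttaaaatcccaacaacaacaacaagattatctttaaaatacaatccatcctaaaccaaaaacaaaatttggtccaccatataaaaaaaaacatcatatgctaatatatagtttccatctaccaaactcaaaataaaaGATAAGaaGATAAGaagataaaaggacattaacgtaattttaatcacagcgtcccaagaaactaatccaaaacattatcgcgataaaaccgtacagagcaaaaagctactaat

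Of 16 genes for the breakdown of branched-chain amino acids and lysine, 12 fell (6.08% of all genes fell), none rose and 4 did not pass. The median was -1.64. This list shares members with the starvation list, among them BCAT-2, MCCA and ETFQO, so its count is not separate from the one above. BCAT-2 (AT1G10070), an aminotransferase that opens branched-chain amino acid breakdown, had 7.97, 5.69 and 6.77 CPM with sucrose and 66.4, 102 and 38.6 CPM with no sugar. It fell by 3.33 ± 0.39 (edgeR adjusted p = 0.00047). MCCA, a subunit of the mitochondrial methylcrotonyl-CoA carboxylase, had 10.5, 12.2 and 10.6 CPM with sucrose and 61.7, 68.2 and 38.1 CPM with no sugar. ETFQO, which passes the electrons of this breakdown to ubiquinone, had 14.5, 17.2 and 16.8 CPM with sucrose and 81.2, 89.1 and 60.4 CPM with no sugar. The sucrose libraries lay close together for both genes. MCCA fell by 2.33 ± 0.29, and ETFQO fell by 2.25 ± 0.24. Of 16 autophagy genes 1 fell (6.25%, against 6.08% of all genes), and the list median was -0.15. The gene was ATG8E (-1.25 ± 0.30, edgeR adjusted p = 0.019, and 0.093, 0.08 and 0.056 without sucrose library 1, sucrose library 3 and no-sugar library 1).

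Several sugar transporter genes fell. Of 26 tested, 7 fell (6.08% of all genes fell) and none rose, with a median of -0.76 (11 fell with DESeq2). STP6, STP9 and SWEET4 had too few counts to be tested. STP1 (AT1G11260), a high-affinity hexose-proton symporter, had 107, 175 and 124 CPM with sucrose and 995, 2099 and 1107 CPM with no sugar. It fell by 3.37 ± 0.35 (edgeR adjusted p = 0.00025). STP4 (AT3G19930), a hexose symporter of sink tissues and roots, had 71.9, 72 and 52.8 CPM with sucrose and 327, 256 and 239.6 CPM with no sugar and fell by 2.06 ± 0.22. For both, the lowest no-sugar library was well above the highest sucrose library. STP13 (AT5G26340), the symporter linked to defence, had 34.6, 42.4 and 21.6 CPM with sucrose and 20.5, 18.8 and 8.08 CPM with no sugar. All its sucrose libraries were higher, but its difference of 1.06 ± 0.35 missed the threshold (edgeR adjusted p = 0.075), which it met once the replicate number entered as a block (edgeR adjusted p = 0.016). SWEET2, a vacuolar sugar carrier, fell by 2.201 ± 0.20, the phloem-loading sucrose symporter SUC2 fell by 1.73 ± 0.25 and the inositol symporter INT1 fell by 1.74 ± 0.29. SWEET11, a phloem sucrose exporter, had 58.6, 78.6 and 56.4 CPM with sucrose and 132, 222 and 213 CPM with no sugar, and its partner SWEET12 had 4.03, 11.7 and 4.63 CPM with sucrose and 29.3, 33.1 and 25.1 CPM with no sugar. Every sucrose library was below every no-sugar library in both, without passing (edgeR adjusted p = 0.1 and 0.09). Both passed with DESeq2 (adjusted p = 0.048 and 0.036) and with the compared groups only (edgeR adjusted p = 0.0045 and 0.007).

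Among enzymes that cleave or make sucrose, members of each kind moved and others did not pass: the sucrose synthase genes SUS1 and SUS4 and the cell wall invertase gene cwINV6 rose, and an invertase gene of the vacuole and one of the cytosol fell. SUS4 (AT3G43190), a sucrose synthase, had 187, 318 and 203 CPM with sucrose and 15.4, 8 and 4.21 CPM with no sugar. It rose by 4.68 ± 0.47 (edgeR adjusted p = 0.0002). SUS1 (AT5G20830), another sucrose synthase, had 363, 368 and 408 CPM with sucrose and 188, 77.7 and 105 CPM with no sugar and rose by 1.62 ± 0.29. The relatives SUS2, SUS3 and SUS6 missed the threshold (edgeR adjusted p = 0.62, 0.64 and 0.99). The vacuolar invertase FRUCT4 (AT1G12240) had 18.6, 16 and 24.6 CPM with sucrose and 64.4, 59.1 and 126 CPM with no sugar and fell by 2.08 ± 0.35. The cytosolic invertase CINV1 fell by 1.39 ± 0.23, and the cell wall invertase cwINV1 had 87.1, 65.3 and 46.8 CPM with sucrose and 209.8, 62.6 and 58.3 CPM with no sugar, overlapping groups. cwINV6 changed by 1.62 ± 0.31 (edgeR adjusted p = 0.0056). In all, 4 of the 16 tested members of this list rose and 3 fell.

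In starch synthesis, the transcript of the plastid glucose-6-phosphate importer GPT2 rose, its relative GPT1 missed the threshold (0.67 ± 0.28, edgeR adjusted p = 0.16), and the subunits of ADP-glucose pyrophosphorylase went both ways. GPT2 had 301, 61.3 and 202 CPM with sucrose and 2.64, 0.264 and 1.52 CPM with no sugar. Its sucrose libraries ranged widely, library 2 being lowest in both groups, and it rose by 6.97 ± 0.76 (edgeR adjusted p = 0.00034). APL3 (AT4G39210), a large subunit of ADP-glucose pyrophosphorylase known to respond to sugar, had 11.1, 8.44 and 8.01 CPM with sucrose and 1.09, 0.527 and 0.421 CPM with no sugar. It rose by 3.73 ± 0.99 (edgeR adjusted p = 0.029), a call lost on leaving out sucrose library 1, 2 or 3 (0.11, 0.075 and 0.079) or no-sugar library 2 or 3 (0.09 and 0.11). APL1, the leaf-type large subunit, had 28.9, 33.4 and 30.8 CPM with sucrose and 82.5, 85.3 and 83.8 CPM with no sugar and fell by 1.43 ± 0.24. Of 18 genes of starch synthesis, 3 rose and 2 fell. Leaving out any 1 sucrose library, or no-sugar library 2, left 1 that rose. Among 18 genes of starch breakdown 2 rose and 1 fell. The rises numbered 5 with DESeq2, 6 with the compared groups only, 1 without sucrose library 1 or no-sugar library 3 and 0 without sucrose library 3, and 2 fell with the replicate block. The one that fell was BMY3 (also BAM9), a beta-amylase family member, with 10.8, 12.9 and 14.1 CPM with sucrose and 141, 109 and 268 CPM with no sugar and a change of -3.78 ± 0.43.

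Of 16 genes of sugar perception 2 rose (12.5%) and 1 fell (6.25%), against 6.41% and 6.08% of all genes. HXK1 (AT4G29130), the hexokinase that acts as a glucose sensor, had 12.3, 7.21 and 7.11 CPM with sucrose and 7.37, 10.5 and 10 CPM with no sugar, a difference of -0.07 ± 0.36 (edgeR adjusted p = 0.94). The SnRK1 kinase subunit KIN10 had 11.7, 10.2 and 11.6 CPM with sucrose and 13, 14.5 and 15.8 CPM with no sugar. The kinase gene TOR had 12.6, 11.8 and 11.7 CPM with sucrose and 14.3, 14.5 and 15.7 CPM with no sugar. KIN10 and TOR, named here after their values were seen, had all sucrose libraries slightly below all no-sugar libraries without passing (edgeR adjusted p = 0.42 and 0.53). Of these, HXK2 and bZIP11 rose and RAPTOR1 fell (-1.16 ± 0.26, edgeR adjusted p = 0.014, and 0.051 to 0.062 without any 1 sucrose library or no-sugar library 3). HXK2 changed by 1.45 ± 0.40 (edgeR adjusted p = 0.035) and bZIP11 by 1.43 ± 0.41 (edgeR adjusted p = 0.04). Both calls were lost on leaving out sucrose library 1 (0.1 and 0.17), sucrose library 3 (0.077 and 0.12) and no-sugar library 2 (0.11 and 0.12). HXK2 was also lost without sucrose library 2 (0.11) or no-sugar library 1 (0.089), and bZIP11 without no-sugar library 3 (0.1) or with the replicate block (0.057). Of the trehalose-6-phosphate genes, the class II synthase relative TPS8 fell by 2.62 ± 0.41 and TPS11 fell by 1.80 ± 0.32, while the catalytically active TPS1 had 5.66, 4.08 and 4.29 CPM with sucrose and 4.73, 5.19 and 4.8 CPM with no sugar.

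Nuclear genes of the photosynthetic apparatus were lower with sucrose. Of 40 genes for light harvesting, photosystems and electron transport, 28 fell (6.08% of all genes fell) and none rose, with a median of -1.36. The count of falls was 18 without sucrose library 1. In 37 every sucrose library was below every no-sugar library (16.9% of all genes). LHCB2.2 (AT2G05070), a light-harvesting chlorophyll-binding protein of photosystem II, had 81.5, 67.6 and 73.7 CPM with sucrose and 332, 368 and 672 CPM with no sugar. The sucrose libraries were close to each other, while no-sugar library 3 was the highest. LHCB2.2 fell by 2.62 ± 0.29 (edgeR adjusted p = 0.00036) and its relative LHCB1.4 fell by 3.76 ± 0.31. LHCB1.2, another relative, had 488, 375 and 341 CPM with sucrose and 344, 354 and 487 CPM with no sugar, which overlapped. LHCB and RBCS copies share much sequence, so the split of reads within these families is uncertain.

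Of 18 genes for the Rubisco small subunit and the Calvin cycle, 11 fell and none rose, with a median of -1.47. TPT (AT5G46110), the triose phosphate exporter of the chloroplast, had 155, 202 and 198 CPM with sucrose and 709, 708 and 1063 CPM with no sugar and fell by 2.16 ± 0.35. GAPA, a subunit of the chloroplast glyceraldehyde-3-phosphate dehydrogenase, fell by 2.09 ± 0.27, and Rubisco activase (RCA) fell by 1.81 ± 0.32. The Rubisco small subunit gene RBCS1B fell by 2.05 ± 0.34 and had 112, 108 and 108 CPM with sucrose and 248, 475 and 638 CPM with no sugar. TKL1, a plastid transketolase named after its values were seen, had 408, 497 and 444 CPM with sucrose and 347, 434 and 517 CPM with no sugar, which overlapped. In the 28 photosynthesis genes that fell, the I-box stood in 28.6% of upstream windows, the G-box in 14.3%, ACTCAT in 7.14% and P1BS in 3.57%. The window of LHCB2.1, which fell by 2.58 ± 0.38, is shown with its I-box in capitals:
LHCB2.1 (chr2:1824481-1824730, minus strand): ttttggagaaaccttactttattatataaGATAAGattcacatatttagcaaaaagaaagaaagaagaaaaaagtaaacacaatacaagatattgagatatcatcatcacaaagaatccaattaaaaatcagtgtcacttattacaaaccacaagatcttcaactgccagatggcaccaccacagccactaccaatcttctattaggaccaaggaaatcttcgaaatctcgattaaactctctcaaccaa

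Genes of nitrite reduction and its supply of reductant rose, and the nitrate reductase genes missed the threshold. NIR1 (AT2G15620), the plastid nitrite reductase, had 711, 1389.5 and 623 CPM with sucrose and 108, 253 and 145 CPM with no sugar. It rose by 2.43 ± 0.40 (edgeR adjusted p = 0.0027), and in both groups library 2 was the highest. UPM1 (AT5G40850), which makes the precursor of the siroheme cofactor of nitrite reductase, had 86.4, 299.7 and 81.7 CPM with sucrose and 12.3, 41.9 and 11.8 CPM with no sugar, and rose by 2.83 ± 0.60. The root-type ferredoxin reductases RFNR1 and RFNR2, which pass electrons from NADPH towards nitrite reductase, rose by 2.90 ± 0.25 and 3.298 ± 0.43. RFNR1 (AT4G05390) had 89.7, 118 and 107 CPM with sucrose and 12.7, 15.6 and 13.9 CPM with no sugar, and the spread within each group was small. G6PD3 (AT1G24280), a plastid glucose-6-phosphate dehydrogenase that makes NADPH, had 40.3, 88.5 and 30.9 CPM with sucrose and 2.87, 5.27 and 1.85 CPM with no sugar. All 3 sucrose libraries were several times above the highest no-sugar library, and G6PD3 rose by 4.00 ± 0.51.

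The nitrate reductase gene NIA1 had 73, 161 and 70.6 CPM with sucrose and 117, 153 and 117 CPM with no sugar, and NIA2 had 426, 1053 and 318 CPM with sucrose and 659.9, 1442 and 754 CPM with no sugar. Both overlapped between the groups (edgeR adjusted p = 0.6 and 0.36). Within libraries of the same number, NIA2 was lower with sucrose in all 3 pairs and NIA1 in 2 of 3. NIA2 passed without sucrose library 2 (edgeR adjusted p = 0.035) and with the block in the compared groups only (0.022). The nitrate transporter and sensor NRT1.1 had 161, 209.6 and 132 CPM with sucrose and 242, 144 and 240.4 CPM with no sugar and did not pass either. NRT2.1, the high-affinity nitrate transporter, was rare, with 0.857, 2.56 and 2.71 CPM with sucrose and 0.31, 0.439 and 0.253 CPM with no sugar (edgeR adjusted p = 0.13). AMT1;1, an ammonium transporter, fell by 1.78 ± 0.33, and CLCA, which loads nitrate into the vacuole, fell by 1.54 ± 0.24. In all, 7 of 31 nitrogen genes rose and 5 fell, ASN1 among the falls. With the replicate block 7 rose and 8 fell.

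**Figure D3:**
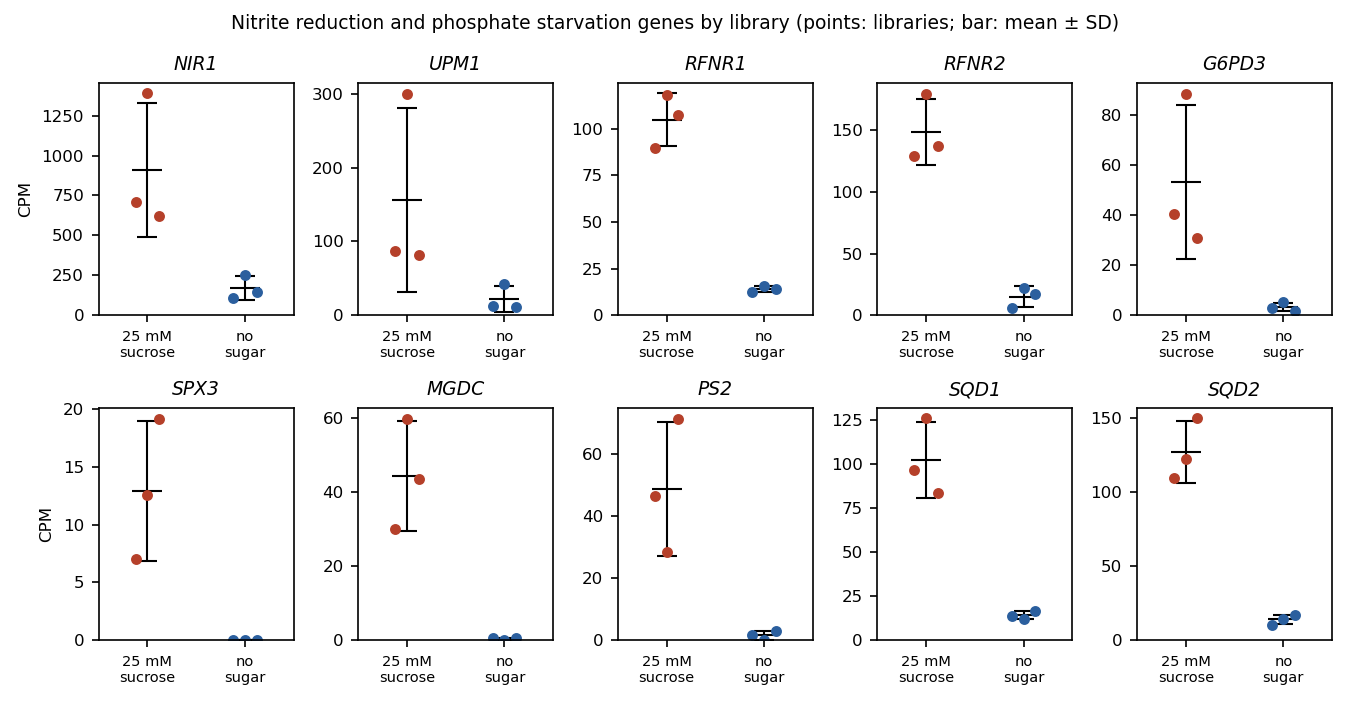
CPM (y) of 5 genes of nitrite reduction and NADPH supply (top row) and 5 phosphate starvation genes (bottom row) in the 25 mM sucrose libraries (red) and the no-sugar libraries (blue), each point 1 library, with mean and SD. All sucrose libraries lie above all no-sugar libraries in each gene, and SPX3 is at 0 in the 3 no-sugar libraries.

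Several phosphate starvation genes rose, among them genes of galactolipid and sulfolipid synthesis. The uptake transporter gene PHT1;1 and the acid phosphatase genes PAP17 and PAP10 missed the threshold (edgeR adjusted p = 0.97, 0.53 and 0.17). Of the 28 listed genes tested, 11 rose and none fell, with a median of 1.02, and 7 rose without no-sugar library 2. The rises were not particular to sucrose. In the libraries titled 2DG_1mM, 19 of the 28 rose against no sugar and 1 fell, with a median of 2.37 (21.3% of all genes rose there). SPX3 (AT2G45130), a small SPX-domain protein of phosphate signalling, had 7.03, 12.6 and 19.2 CPM with sucrose and no count in any no-sugar library. Against a floor of 3 counts over that group it was at least 156-fold higher (edgeR adjusted p = 0.00025). MGDC (AT2G11810, also MGD3) and MGD2 make galactolipid that replaces phospholipid in membranes. MGDC had 30.1, 59.7 and 43.3 CPM with sucrose and 0.543, 0.0879 and 0.421 CPM with no sugar, and rose by 6.91 ± 0.64. MGD2 rose by 4.22 ± 0.72. SQD1 and SQD2 are the enzymes of sulfolipid synthesis, which also spares phosphate. SQD1 (AT4G33030) had 96.6, 126 and 83.5 CPM with sucrose and 13.9, 11.9 and 16.3 CPM with no sugar, and SQD2 (AT5G01220) had 109, 122 and 150.1 CPM with sucrose and 10.5, 14.2 and 16.9 CPM with no sugar. They rose by 2.86 ± 0.24 and 3.20 ± 0.44, with little spread among no-sugar libraries. PS2 (AT1G73010), a phosphate starvation-induced phosphatase, had 46.2, 28.3 and 71.2 CPM with sucrose and 1.71, 0.0879 and 2.95 CPM with no sugar and rose by 4.92 ± 0.68.

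The main uptake transporter PHT1;1 had 51.8, 51.9 and 57.1 CPM with sucrose and 55.2, 46.9 and 61.5 CPM with no sugar, a difference of -0.03 ± 0.28. PHR1, the transcription factor that directs the phosphate starvation response, had 92, 77 and 74.2 CPM with sucrose and 94.8, 85.7 and 67.5 CPM with no sugar. Neither passed (edgeR adjusted p = 0.97 and 0.96). No-sugar library 2 was low in several of these genes: SPX1 had 35.2, 55.6 and 53.8 CPM with sucrose and 47.7, 5.54 and 80 CPM with no sugar, and the acid phosphatase PAP17 had 31.4, 26.7 and 36.7 CPM with sucrose and 23.2, 4.92 and 33.8 CPM with no sugar. The P1BS motif, the sequence PHR1 is known to bind, stood in 3 of the 11 windows of phosphate genes that rose (27.3%) against 5.57% of all genes. The share was similar, 25.9%, in the 27 starvation genes that fell, and 6.18% in all genes that rose. A match describes the letters and is not a site. The I-box stood in 9.09% of the 11, and the G-box and ACTCAT in 0. The windows of SPX3 and PS2 are shown with P1BS matches in capitals:
SPX3 (chr2:18606160-18606409, plus strand): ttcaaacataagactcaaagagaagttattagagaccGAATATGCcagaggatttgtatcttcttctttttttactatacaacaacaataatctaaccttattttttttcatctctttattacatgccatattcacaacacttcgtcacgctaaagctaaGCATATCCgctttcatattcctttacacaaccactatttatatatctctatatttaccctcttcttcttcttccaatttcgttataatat
PS2 (chr1:27466349-27466598, minus strand): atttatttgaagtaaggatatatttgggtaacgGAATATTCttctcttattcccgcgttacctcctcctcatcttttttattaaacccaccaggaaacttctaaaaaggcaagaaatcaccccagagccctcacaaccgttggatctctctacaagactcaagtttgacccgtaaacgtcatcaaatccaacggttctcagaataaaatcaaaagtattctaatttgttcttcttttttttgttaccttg

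Genes for the use of hexoses in glycolysis and fermentation rose in part. Of 30 genes for glycolysis, fermentation and organic acids, 10 rose and 3 fell, with a median of 0.66, and 1 fell without sucrose library 2, sucrose library 3 or no-sugar library 3. PDC1 (AT4G33070), a pyruvate decarboxylase of ethanol fermentation, had 139, 290.2 and 133 CPM with sucrose and 6.67, 4.22 and 2.53 CPM with no sugar. It rose by 5.38 ± 0.51 (edgeR adjusted p = 0.00016). LOS2, the cytosolic enolase, had 962, 1188 and 944 CPM with sucrose and 331, 389.5 and 383 CPM with no sugar and rose by 1.49 ± 0.20, and the phosphofructokinase PFK7 rose by 1.70 ± 0.29. PCK1, the phosphoenolpyruvate carboxykinase of gluconeogenesis, fell by 1.02 ± 0.21. It is named after its values were seen.

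The list of core low-oxygen genes shares PDC1 and SUS4 with the lists above, and 8 of its 13 members rose, with a median of 1.87. The count was 5 without sucrose library 1, sucrose library 2 or no-sugar library 3. HRE2 (AT2G47520, also ERF71), an ethylene response factor of low oxygen, had 35.8, 70.3 and 23.1 CPM with sucrose and 3.18, 3.25 and 0.758 CPM with no sugar and rose by 4.16 ± 0.56. Its relative HRE1 had 12.2, 18 and 12.4 CPM with sucrose and 26.9, 32.6 and 19.2 CPM with no sugar, lower in each sucrose library but not past the threshold (edgeR adjusted p = 0.19). The oxygen-sensing oxidase PCO1 had 23.5, 93.6 and 22 CPM with sucrose and 20.5, 48.4 and 10.8 CPM with no sugar, and PCO2 had 19.8, 131 and 27.2 CPM with sucrose and 8.54, 26.5 and 3.62 CPM with no sugar. For both, library 2 was highest in each group and the groups overlapped, yet within each pair of libraries of the same number the sucrose library was the higher. They missed the threshold in the fit without pairing (edgeR adjusted p = 0.45 and 0.083). With the replicate block 9 members rose, PCO2 among them (edgeR adjusted p = 0.029) and PCO1 not (0.24), and PCO2 also passed with DESeq2 (adjusted p = 0.015).

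**Figure D4:**
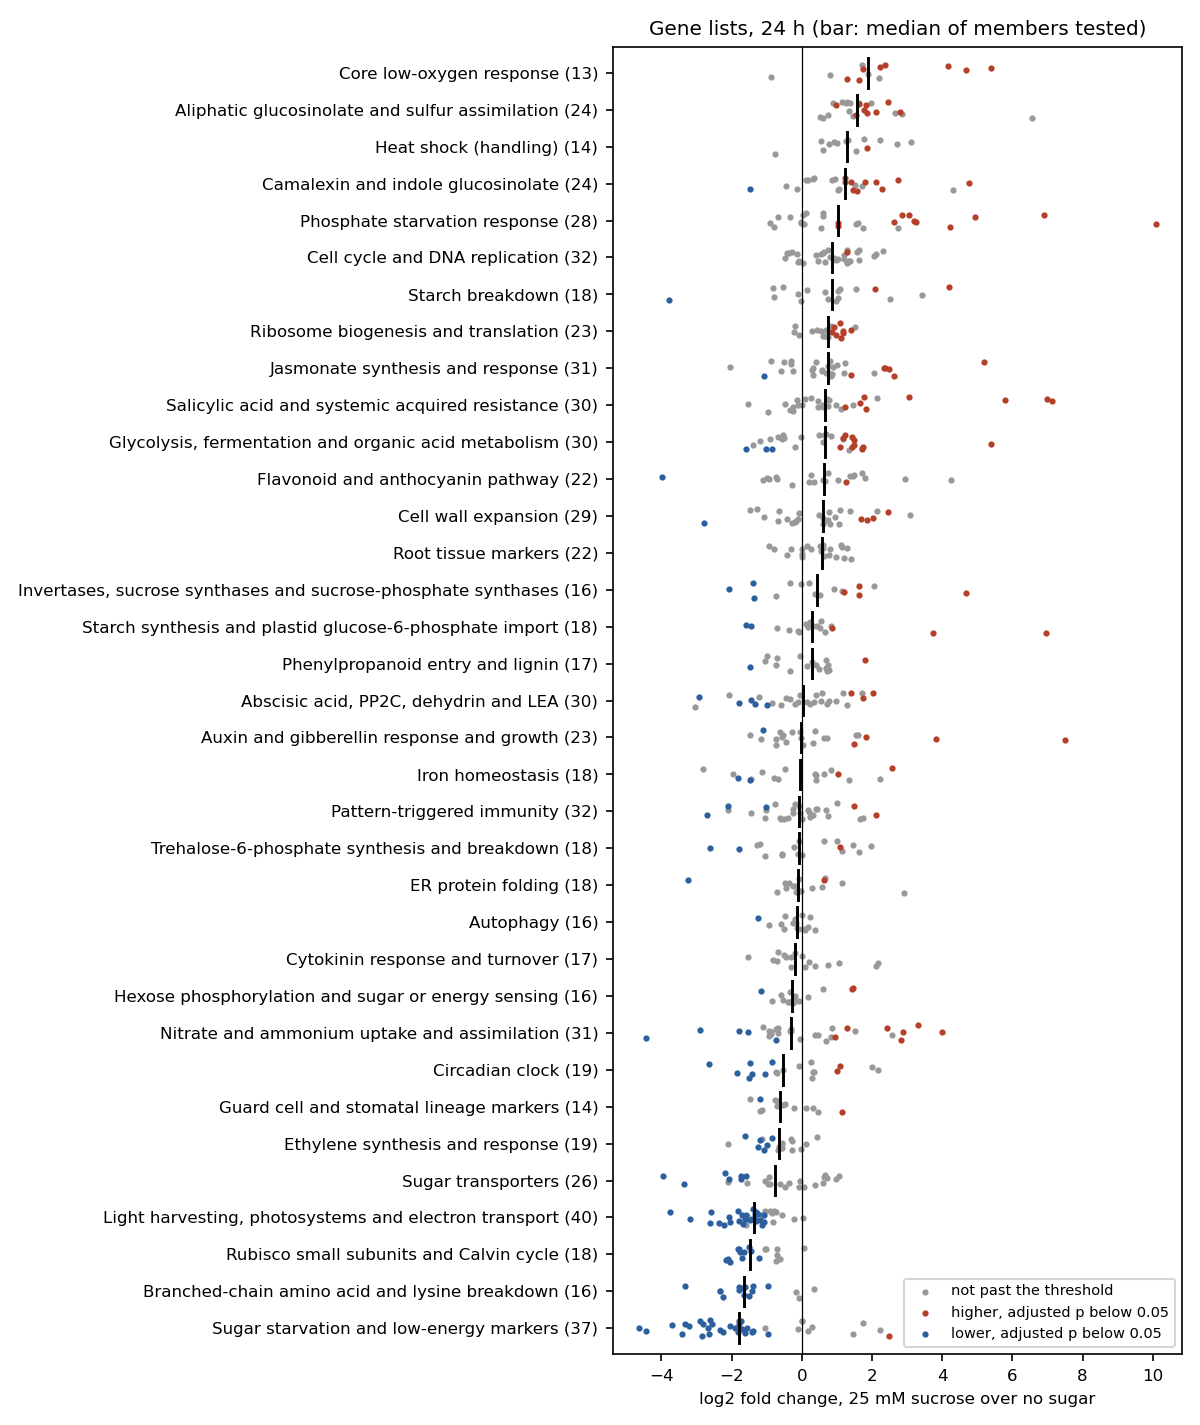
Log2 fold change of sucrose over no sugar (x) for each tested member of 35 gene lists (y), with the number tested in parentheses and the median as a black bar. Red members rose and blue members fell, and some genes are members of several lists. Starvation, amino acid breakdown, Calvin cycle and photosynthesis lists have the lowest medians, from -1.80 to -1.36, and the low-oxygen list has the highest at 1.87. The fitted folds of SPX3, FMO1, PR2, WRKY38, IAA5 and SULTR1;1, which had no counts with no sugar, are not bounds.

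The series is titled for defence signalling activated by sugar, and these libraries address what sucrose changes with no flg22 given. Enzymes of the tryptophan-derived and methionine-derived defence compounds were among the genes that rose. Of 24 camalexin and indole glucosinolate genes, 10 rose and 1 fell, with a median of 1.23, and the count of rises was 5 without sucrose library 1 and 6 without no-sugar library 3. None fell without sucrose library 1 or 3 or no-sugar library 1 or 3. PAD3 (AT3G26830), the last enzyme of the antimicrobial camalexin, had 55, 48.4 and 10.3 CPM with sucrose and 0.155, 2.29 and 1.77 CPM with no sugar. Sucrose library 3 was the lowest of its group, and PAD3 rose by 4.76 ± 0.85 (edgeR adjusted p = 0.0042). TSA1, a tryptophan synthase subunit, had 202, 158 and 113 CPM with sucrose and 52.8, 18.8 and 26.4 CPM with no sugar and rose by 2.27 ± 0.41.

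In the list of aliphatic glucosinolate and sulfur assimilation genes, 9 of 24 rose and none fell, with a median of 1.59. In 21 of the 24 every sucrose library lay above every no-sugar library (20.2% of all genes). The count of rises was 5 without sucrose library 2, 4 without sucrose library 3 and 16 with DESeq2. SOT17 (AT1G18590), a sulfotransferase that completes the glucosinolate core, had 100.3, 85.7 and 58.8 CPM with sucrose and 27.5, 18 and 11.5 CPM with no sugar and rose by 2.103 ± 0.38. IMD1, an isopropylmalate dehydrogenase of methionine chain elongation, had 68.9, 70.1 and 77.2 CPM with sucrose and 10.09, 27.5 and 21.7 CPM with no sugar and rose by 1.87 ± 0.36.

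Of 30 genes of salicylic acid and systemic acquired resistance, 8 rose and none fell, with a median of 0.66. The count was 5 without no-sugar library 3 and 4 with the fit of the compared groups only. FMO1 (AT1G19250), which makes the resistance signal N-hydroxypipecolic acid, had 2.31, 1.61 and 0.452 CPM with sucrose and no count with no sugar. Its mean of 1.46 ± 0.941 CPM with sucrose stood against a floor of 0.0829 CPM, or 3 counts, with no sugar (edgeR adjusted p = 0.0047). PR2 (AT3G57260), a glucanase and marker of salicylic acid, had 0.6, 3.89 and 0.452 CPM with sucrose and no count with no sugar, at least 19.9-fold higher. Sucrose library 2 held most of the PR2 counts, and its call (edgeR adjusted p = 0.023) was lost without it (0.062) and without no-sugar library 2 or 3 (0.052 and 0.06). GRX480 (AT1G28480), a glutaredoxin induced by salicylic acid, had 28.8, 12.3 and 34.4 CPM with sucrose and 5.59, 0.791 and 2.53 CPM with no sugar and rose by 3.07 ± 0.55.

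Of 32 pattern-triggered immunity genes, 2 rose (6.25%) and 3 fell (9.38%), against 6.41% and 6.08% of all genes, with a median of -0.07. WRKY22 (AT4G01250), a transcription factor downstream of flg22 perception, had 25.6, 10.3 and 11.4 CPM with sucrose and 199.8, 26.5 and 84.6 CPM with no sugar. It fell by 2.71 ± 0.61 (edgeR adjusted p = 0.014, and 0.059 and 0.065 without sucrose library 2 and 3). PUB22, a ubiquitin ligase that dampens this response, fell by 2.11 ± 0.38. Without sucrose library 2 or 3, 1 member fell. Without no-sugar library 1, 5 rose, and without sucrose library 2, no-sugar library 2 or no-sugar library 3, 0 rose. Whether this list differs from the lists of defence compounds was not tested.

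Hormone genes were examined by pathway. Of 31 jasmonate genes 6 rose and 1 fell, with a median of 0.75. LOX2 (AT3G45140), the chloroplast lipoxygenase that starts jasmonate synthesis, had 76.6, 59.1 and 68.5 CPM with sucrose and 18.16, 12.4 and 9.09 CPM with no sugar and rose by 2.36 ± 0.38. AOC3, an allene oxide cyclase of the same route, rose by 2.64 ± 0.45. The jasmonate rises numbered 3 without sucrose library 1 or 3 and 10 without no-sugar library 1. Of 19 ethylene genes 6 fell and none rose, with a median of -0.64, and 3 fell without sucrose library 3. CTR1, the kinase that restrains ethylene signalling, fell by 1.196 ± 0.20. GH3.3 (AT2G23170), which conjugates auxin to amino acids, had 51.8, 56 and 24.6 CPM with sucrose and 3.49, 3.34 and 2.53 CPM with no sugar and rose by 3.82 ± 0.35. It was 1 of 4 risen members of the 23 auxin and gibberellin genes, of which 1 fell, and the rises numbered 1 or 2 without any 1 library. None fell without sucrose library 2 or 3 or no-sugar library 1 or 2. Of 30 abscisic acid genes 3 rose and 5 fell. With the replicate block 6 rose, without sucrose library 1 or 3 or no-sugar library 2 or 3, 1 rose, and 2 or 3 fell without sucrose library 1, sucrose library 2 or no-sugar library 3. CYP707A2, which degrades abscisic acid, fell by 2.93 ± 0.48, and its relative CYP707A1 rose by 2.02 ± 0.43. Of the 17 cytokinin genes 0 passed in edgeR, 3 had an unadjusted p below 0.05 and 1 passed in DESeq2.

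Anthocyanin genes, often used as a readout of sugar, were mostly unresolved at 24 h. Of 22 tested, 1 rose and 1 fell. The rise was in RHM1, a rhamnose synthase gene (1.25 ± 0.36, edgeR adjusted p = 0.042, and 0.072 to 0.18 without sucrose library 1 or 3 or no-sugar library 1 or 2), while DFR, LDOX, UGT79B1, MYB113 and TT8 had too few counts to be tested. The one that fell was MYBL2 (AT1G71030), a repressor of the pathway. It had 2.23, 1.33 and 2.48 CPM with sucrose and 31.4, 34.4 and 30.2 CPM with no sugar, and fell by 3.99 ± 0.38 (edgeR adjusted p = 0.00016). MYB75 (AT1G56650; PAP1), the sugar-responsive activator, had 4.29, 0.758 and 3.61 CPM with sucrose and 0, 0 and 1.09 CPM with no sugar. TT4, the chalcone synthase, had 161, 105 and 152 CPM with sucrose and 53.5, 65.5 and 144 CPM with no sugar. The groups overlapped for both (edgeR adjusted p = 0.27 and 0.25). With the replicate block, 5 members of the list rose and 2 fell, FLS1, CHIL, MYB111 and GSTF12 being among the rises, and without no-sugar library 3, 5 rose.

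Several clock genes expressed in the morning fell. LNK2 (AT3G54500), a co-activator of the morning complex, had 67.4, 98.6 and 96.6 CPM with sucrose and 455, 606 and 588 CPM with no sugar and fell by 2.65 ± 0.28. LHY (AT1G01060), a core morning transcription factor, had 196, 286 and 218 CPM with sucrose and 474, 777 and 709.6 CPM with no sugar and fell by 1.49 ± 0.23. CCA1 and RVE8, related morning factors, fell by 1.42 ± 0.21 and 1.52 ± 0.21. Both groups are labelled 24 h, and the hour of harvest is not given. In all, 7 of 19 clock genes fell and 2 rose, but 0 rose without sucrose library 1, and 1 without sucrose library 2 or 3 or no-sugar library 1 or 3. Of 23 genes for ribosomes and their assembly, 8 rose and none fell, with a median of 0.76. The count was 3 without sucrose library 1 and 5 without sucrose library 3 or no-sugar library 1. The nucleolar protein NOP56 had 653, 598 and 788 CPM with sucrose and 226, 260.4 and 412 CPM with no sugar and rose by 1.18 ± 0.25. Of 32 cell cycle genes 1 rose, CYCD2;1, a sugar-responsive D-type cyclin, with 1.28 ± 0.31 (edgeR adjusted p = 0.018, and 0.093, 0.056 and 0.068 without sucrose library 1, no-sugar library 1 and no-sugar library 3). In 13 of the 32 all sucrose libraries lay above all no-sugar libraries (20.2% of all genes). The list count was 3 with DESeq2 and 6 with the compared groups only.

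The remaining lists are given by their counts, against 6.41% of all genes that rose and 6.08% that fell. Among 29 cell wall expansion genes 4 rose and 1 fell, with 8 and 4 in DESeq2 and 2 rises without sucrose library 2. XTH19, a wall-loosening xyloglucan endotransglucosylase, had 33, 48.4 and 36.9 CPM with sucrose and 8.15, 5.45 and 8 CPM with no sugar and rose by 2.45 ± 0.28. XTH6 of the same family had 4.97, 5.21 and 7.22 CPM with sucrose and 22, 41.3 and 56.2 CPM with no sugar and fell by 2.78 ± 0.55, so that members of this family moved in both directions. Of 18 iron genes 2 rose and 2 fell. The rises numbered 1 without no-sugar library 1 and 0 without any other single library. The falls numbered 4 with DESeq2 or the compared groups only, 3 without no-sugar library 1, and 1 without sucrose library 1, sucrose library 2 or no-sugar library 3. The iron storage gene FER1 fell by 1.82 ± 0.35. Of 18 genes of protein folding in the endoplasmic reticulum 1 rose and 1 fell. With the replicate block 0 rose and 0 fell. Without any 1 sucrose library 0 rose and 0 fell. The rise, in PDIL1-1, was also lost without any 1 no-sugar library (edgeR adjusted p = 0.067 to 0.13). It was lost too with the compared groups only (0.062) and with no filter on low counts (0.066). The fall, in BIP3, was also lost without no-sugar library 1. Of 17 phenylpropanoid genes 1 rose and 1 fell. In that list 3 rose without no-sugar library 1 and 0 without sucrose library 1 or 3 or no-sugar library 2 or 3, and 3 fell with DESeq2 or without no-sugar library 2 and 0 without any other single library. Of 18 trehalose-6-phosphate genes 1 rose and 2 fell. There 4 rose with the compared groups only, 0 rose without sucrose library 1, sucrose library 3 or no-sugar library 3, and 4 fell with DESeq2. FAMA, a transcription factor of guard cell fate, had 27.9, 19.5 and 20 CPM with sucrose and 41.7, 64.2 and 49.6 CPM with no sugar and fell by 1.204 ± 0.25. Of the 14 heat shock genes 1 rose, against 3 with the replicate block and 5 without no-sugar library 1, and 0 rose without no-sugar library 3.

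2DG is phosphorylated by hexokinase but scarcely used by glycolysis. The libraries titled 2DG_1mM differed from no sugar in 9697 genes (49.2%), and the sucrose libraries differed from them in 9731 genes (49.3%). Both comparisons share libraries with the one above, so their values are set side by side. LHCB2.2 was lower with 2DG than with sucrose: it averaged 74.3 ± 6.94 CPM with sucrose, 3.92 ± 0.906 with 2DG and 458 ± 187 with no sugar (SD, n = 3 each). The difference of sucrose from 2DG was 4.24 ± 0.33 (edgeR adjusted p = 3.8e-06). GRX480 and FMO1 were lower with sucrose than with 2DG. GRX480 averaged 25.2 ± 11.5 CPM with sucrose, 395 ± 53.5 with 2DG and 2.97 ± 2.43 with no sugar, a difference of -3.97 ± 0.55 between sucrose and 2DG (edgeR adjusted p = 0.00014). FMO1 averaged 1.46 ± 0.941 CPM with sucrose and 13.6 ± 3.32 with 2DG and had no count with no sugar, a difference of -3.19 ± 0.65 (edgeR adjusted p = 0.0028). PAD3 averaged 37.9 ± 24.1 CPM with sucrose, 41.4 ± 29.3 with 2DG and 1.4 ± 1.11 with no sugar, and sucrose and 2DG differed by -0.13 ± 0.69 (edgeR adjusted p = 0.89).

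Further genes differed between sucrose and 2DG. NIR1 averaged 908 ± 419.6 CPM with sucrose, 195 ± 61 with 2DG and 168 ± 75.1 with no sugar, and was higher with sucrose than with 2DG by 2.22 ± 0.39 (edgeR adjusted p = 0.0008). G6PD3 was higher with sucrose than with 2DG by 4.92 ± 0.54, and SOT17 by 1.22 ± 0.37. BIP3 (AT1G09080), a chaperone of the endoplasmic reticulum, averaged 2.81 ± 1.34 CPM with sucrose, 1343 ± 375 with 2DG and 27 ± 36.7 with no sugar, a difference of -8.89 ± 1.09 between sucrose and 2DG (edgeR adjusted p = 6.7e-05). Of the 18 folding genes of the endoplasmic reticulum, 15 rose in the libraries titled 2DG_1mM against no sugar (21.3% of all genes rose). In those titled Suc_25mM 1 rose (6.41% of all genes). 2DG is known to disturb the glycosylation of proteins and to induce such genes. Whether this underlies the counts, or bears on the conflict of title and treatment label, was not tested. The fall of BIP3 with sucrose against no sugar (edgeR adjusted p = 0.033) was lost with the replicate block (0.058) and without any 1 sucrose library (0.081 to 0.12) or no-sugar library 1 (0.12), which alone had 69.4 CPM. The sugar starvation genes went both ways with 2DG. Of the 37 tested, 10 rose and 14 fell in the libraries titled 2DG_1mM against no sugar, with a median of -0.41. Of all genes, 21.3% rose there and 27.9% fell. ASN1 was among the falls (-1.67 ± 0.29). BGLU30 averaged 9.82 ± 4.83 CPM with sucrose, 463 ± 208 with 2DG and 36.7 ± 12.9 with no sugar. This beta-glucosidase gene fell with sucrose against no sugar (edgeR adjusted p = 0.016, and 0.051 without no-sugar library 2), and sucrose differed from 2DG by -5.55 ± 0.51 (edgeR adjusted p = 1e-05). STP4 averaged 65.6 ± 11 CPM with sucrose and 71.6 ± 8 with 2DG, which differed by -0.13 ± 0.21 (edgeR adjusted p = 0.65).

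**Figure D5:**
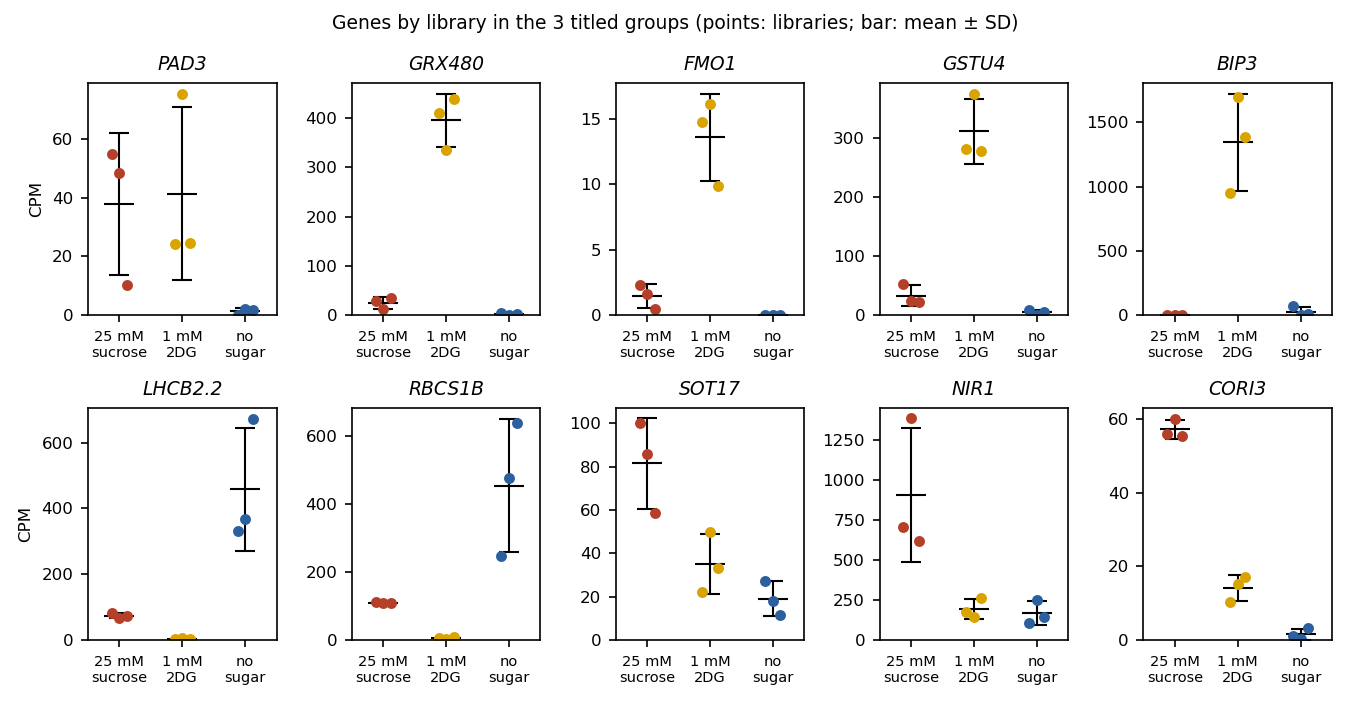
CPM (y) of 10 genes in the libraries titled 25 mM sucrose (red), 1 mM 2DG (yellow) and no sugar (blue), each point 1 library, with mean and SD. GRX480, FMO1, GSTU4 and BIP3 are highest with 2DG, LHCB2.2 and RBCS1B are highest with no sugar, and NIR1, SOT17 and CORI3 are highest on average with sucrose.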

How the data were processed

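The deposited table holds raw read counts per gene, with 1 column per library. Per the submitters' processing notes, the authors used fastp 0.19.7, STAR 2.6.1b, featureCounts 1.6.0 and TAIR10; settings, including strand, are not given in the sources used here. Per the labels' protocols, RNA came from whole seedlings and libraries were strand-specific 3′ BrAD-seq libraries. Overlapping, antisense and near-identical genes are therefore uncertain.

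Counts were fitted with edgeR 4.0.16 in R 4.3.3 (quasi-likelihood test, TMM scaling, filterByExpr, Benjamini-Hochberg adjustment). The 9 libraries titled Suc_25mM, 2DG_1mM and Suc_0mM entered 1 fit. The table held 32833 loci, of which 19727 passed the filter, and 8555 of these had a gene symbol in RefSeq TAIR10.1. The script was tested on simulated data. Alternatives were DESeq2 1.42.0, its size factors, other filters, the compared groups only, a replicate block, leaving out each library, and groups taken from the treatment label.

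Same-numbered sucrose and no-sugar libraries deviated together (r = 0.123 to 0.242 over 3 pairs, against -0.226 to 0.004 over 6 pairs of different number). This is a hint of pairs from the data and not a statement of the labels. The main fit had no term for the library number, so its p-values and standard errors are unpaired. Pairs entered only the rule for naming genes, the replicate block and comparisons stated as within pairs. Same-numbered 2DG libraries shared little with sucrose or no sugar (r = -0.018 to 0.042), and the replicate block was fitted with them included. No 2 libraries were identical. The p-values rest on the spread between libraries of a group, from 3 trials. That spread was estimated over all 9 libraries of the fit, those titled 2DG_1mM included. For a gene with 0 counts in all 3 no-sugar libraries, folds use a floor of 3 counts over the group, which covers counting error only.

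The members and the 35 gene lists were chosen with earlier results of these data known. Of 898 written entries, 852 were kept and 46 were dropped because symbol and locus did not pair, were duplicates or had homonyms, and 53 of those kept did not pass the count filter. Genes to be named were the 15 largest rises and 15 largest falls (mean log2 CPM of at least 3, same direction in all 3 pairs), the 4 largest called members of each list, STP1, STP4, STP13, HXK1, and all members of the starvation, anthocyanin, nitrogen, phosphate, starch, transport and sucrose lists; not all are printed. Some items are not reported here.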

Additional observations from a re-analysis of the deposited data

How the results depend on the processing

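The number of genes that differed between sucrose and no sugar, 2463 (1264 rose, 1199 fell), was 2451 with DESeq2 size factors, 2495 with no filter on low counts, 2480 with a mean count of at least 10 and 3221 with the compared groups only. DESeq2 gave 3581, with 1900 rises and 1681 falls. Leaving out 1 library gave 1277 to 2214 in all, 657 to 1183 rises and 620 to 1031 falls, each fit having fewer samples. The fit of all 9 libraries with the replicate block, 2DG included, gave 2563, of which 2294 were among the 2463. As same-numbered 2DG libraries deviated little with the others, it is not a clean paired test of sucrose against no sugar. A replicate block with the compared groups only, chosen after seeing the data, gave 4304, with 2117 rises and 2187 falls. Beside the calls given in the text, the block changed no other call of a gene named there. With groups taken from the treatment label, 9697 genes differed (4203 rose, 5494 fell). Under that label 14 of the 15 largest rises and 14 of the 15 largest falls kept their sign, and 26 of the 30 kept sign and call. That comparison is the one of the libraries titled 2DG_1mM with no sugar, so the list counts also change. The starvation list then had 10 rises and 14 falls in place of 1 and 27. The list of branched-chain amino acid and lysine breakdown had 1 rise and 5 falls in place of 0 and 12. The autophagy list had 15 rises and 0 falls in place of 0 and 1. The photosynthesis list had 40 falls in place of 28. Other results are not given under that label. None of the 268 genes eligible for naming reversed its call under the other alternatives. Counts for 2DG against no sugar, and for sucrose against 2DG, stayed within 1.5 times their value. With 8054500 to 12881741 counts per library in the compared groups, genes below about 1 CPM rest on few counts.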

Other observations

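Gene families outside the lists, picked after their values were seen, are given as values with no test. Of 25 tau glutathione transferase genes, which encode enzymes that conjugate glutathione to small molecules, 13 rose with sucrose and 1 fell, with a median log2 change of 1.59, while 6.41% of all genes rose. Of 53 UDP-glycosyltransferase genes, 13 rose (24.5%) and 2 fell (3.77%, against 6.08% of all genes), with a median of 0.58.

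Of 26 spliceosomal snRNA genes, 13 rose (50%, against 6.41% of all genes) and none fell, with a median of 1.25. These RNAs have no poly(A) tail, so their counts in a 3′ library are uncertain. Numbered copies of the same RNA, such as those of U1, are also near-identical. U12, U4atac and U6acat, which rose too, are not listed as numbered copies. Of 114 snoRNA genes, 5 rose (4.39%) and 2 fell (1.75%), against 6.41% and 6.08% of all genes, with a median of 0.07. Of 78 chloroplast-encoded genes, none rose and 5 fell (6.41%, near the 6.08% of all genes), with a median of -0.38. The share of counts from the chloroplast and mitochondrial genomes was 0.672% to 1.07% over the libraries.

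Of the 5 tested genes of the BT family of scaffold proteins, BT1, BT2 and BT5 fell, BT4 rose and BT3 did not pass (log2 change 0.28).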
